A study of Mus musculus with 7 samples.

Results

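The enzymes that use arginine and make or break down polyamines were followed in sorted muscle cells of mice kept in normal or raised CO2. The enzymes were listed by name, with earlier results of these data known, and those considered here are 8 genes (Nos2, Ass1, Asl, Odc1, Srm, Sms, Sat1 and Amd1). Values are given for 5 of them, out of the 23930 genes of the deposited table, and Ass1, Sms and Amd1 were not analysed here. RNA came from 3 libraries of normocapnic mice (NC1 to NC3) and 4 libraries of hypercapnic mice (HC1 to HC4). All carried an inducible Pax7-GFP reporter, in which a Pax7-driven Cre switches on GFP once tamoxifen is given, so GFP marks satellite cells and their descendants rather than current Pax7 expression. All mice received tamoxifen at 12 weeks of age, spent 4 weeks in their condition and were collected at 16 weeks. Normocapnic mice breathed room air and hypercapnic mice lived in a chamber at 10% CO2. By the study's methods, the tibialis anterior and gastrocnemius muscles of both groups were injured with cardiotoxin, a myofiber toxin, 3 days before sorting. Cells were sorted from all muscles of the hind legs, so from injected and other muscles together. The sample labels leave this injury out, whereas the title of the deposited table carries a time of 40 hours. The genotype label runs from C57BL/6 for NC1 to C57BL/12 for HC4, one step per library, whereas the growth protocol names C57/B6 for all. Whether each library is 1 animal is not stated, so p-values measure the spread between libraries.

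Arginine stands at a fork in metabolism. It can be cut to ornithine and urea, and nitric oxide synthases turn it into nitric oxide and citrulline, which the pair Ass1 and Asl can rebuild into arginine. Ornithine decarboxylase (Odc1) opens the polyamine branch by making putrescine, to which spermidine synthase (Srm) and spermine synthase (Sms) add aminopropyl groups supplied by Amd1, while Sat1 acetylates spermidine and spermine for export or breakdown. Nos2 is widely used as a marker of inflammatory macrophages, and polyamines are known to accompany proliferation.

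Values are RPM (reads of a gene after every library is brought to the same panel-wide sum), from a method that copies a single short stretch of each transcript. They therefore compare a gene between libraries, not genes with each other. The values gave back whole reads, with library totals of 14527445 to 23388710, so a gene at 10 RPM rests on over 100 reads in each library. Defining markers of the labelled cell type were uneven: Pax7 was lowest in NC3 at 4.34 RPM and highest in NC1 at 268 RPM. The sum of 10 satellite cell markers was 4177, 1006 and 537 RPM in NC1 to NC3 and 804 to 1626 RPM in hypercapnia. Of this sum, Sdc4 alone was 723, 781 and 441 RPM in NC1 to NC3 and 429 to 450 RPM in hypercapnia. The other markers of the list were therefore less even than the sum. Of 10 macrophage markers, Lyz2 alone made up 65.5 to 84.2% of the summed RPM in each library, at 8354 RPM (NC1) to 29108 RPM (NC3), and the other 9 summed to 3293, 6991 and 5474 RPM in NC1 to NC3 and to 4789 to 7141 RPM in hypercapnia, with C1qa at or near 0 throughout. The hypercapnia libraries formed pairs, HC1 with HC2 and HC3 with HC4: a chi-square of the reads over its degrees of freedom was 22.5 and 26.0 within the pairs and 98.5 to 124 across them. In such mixed libraries, fewer cells of a type and less RNA per cell cannot be told apart.

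None of the 5 enzymes passed the study's thresholds, an unadjusted p under 0.05 with a fold change above 1.5, in limma on log2(RPM + 1). This compares with 2.57% of all genes called. Odc1 alone had an unadjusted p under 0.05, as had 4.66% of all genes. After Benjamini-Hochberg adjustment no gene of the table was called (0%), and the lowest adjusted p among the enzymes was 0.915. On whole reads, edgeR with a filter also called 0 of the 5, beside 6.03% of the 13293 genes it tested. DESeq2 called 0 of the 4 to which it gave a p, beside 6.25% of the 20858 genes it tested. After adjustment, edgeR called no gene of the table and DESeq2 called 29 (0.139%), none of them among these enzymes. The median log2 fold change, hypercapnia over normocapnia, was 0.34 for the 4 enzymes averaging 1 RPM or more, against 0.16 for all genes at that level. Both medians depend on the scaling. They were 0.19 for the enzymes and 0.04 for all genes under median-of-ratios scaling, 0.37 and -0.01 under quantile normalization, 0.19 and -0.01 in edgeR with a filter, and 0.14 and -0.04 in DESeq2.

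**Figure D1:**
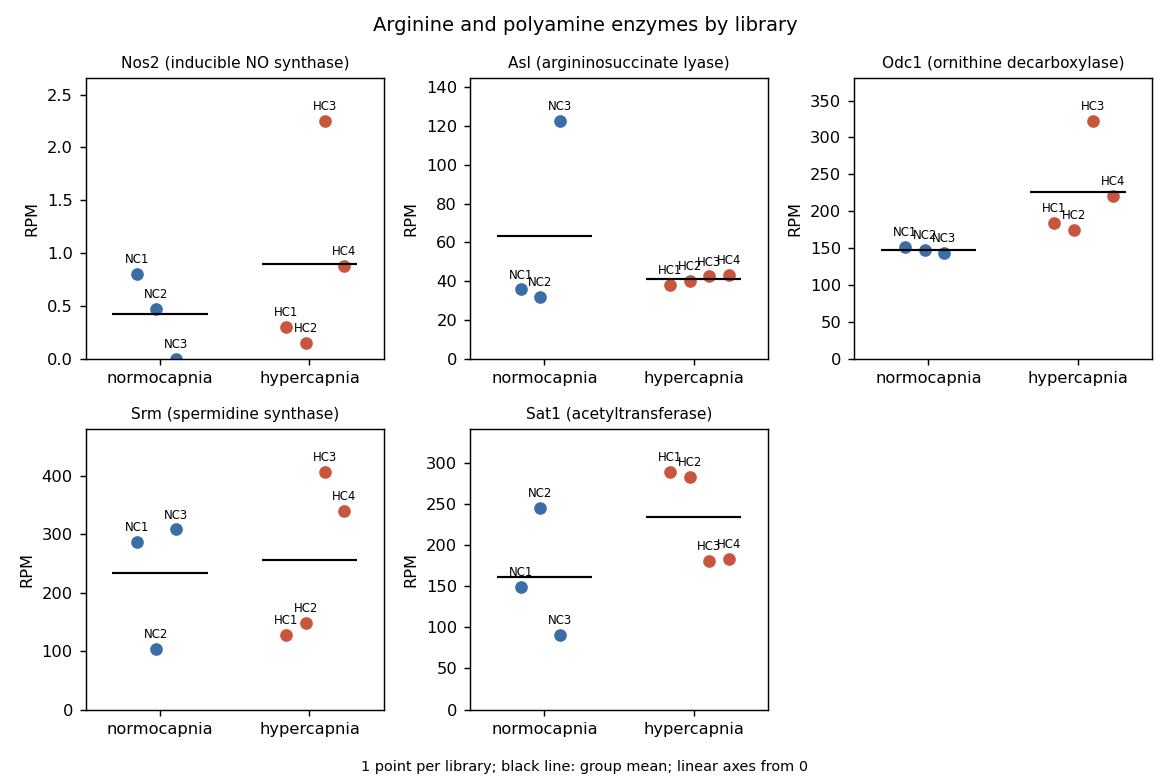
RPM of the 5 enzymes in each library (linear axes from 0, 1 point per library, black line at the group mean). Odc1 is the panel in which the groups do not overlap, and a single library, NC3, carries the high normocapnia mean of Asl.

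Nos2, the inducible nitric oxide synthase, which makes nitric oxide from arginine, was close to the limit of detection. It stood at 0.803, 0.47 and 0 RPM in NC1 to NC3 (18, 11 and 0 reads) and at 0.3, 0.151, 2.25 and 0.88 RPM in the hypercapnia libraries HC1 to HC4 (7, 3, 36 and 13 reads). A count of 0 in NC3 allows up to 0.207 RPM, taking 3 reads as the floor, and HC2 lies at its own floor of 0.151 RPM. The groups overlapped and the log2 fold change of 0.33 (SE 0.43, unadjusted p 0.473) shrank to 0.03 without HC3. On whole reads it was 1.06 in both edgeR and DESeq2 (unadjusted p 0.395 and 0.387), neither of which called it. Counting error spans 1.58 to 3.11 RPM for HC3, the highest library, and 0.0311 to 0.441 RPM for HC2, the lowest hypercapnia library (exact Poisson 95% intervals). The summed neutrophil and endothelial markers were also highest in HC3, at 329 and 516 RPM, and their part in Nos2 was not tested.

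Asl, argininosuccinate lyase, closes the citrulline to arginine cycle. It stood at 35.6, 31.7 and 122.5 RPM in the normocapnia libraries NC1 to NC3, against 37.8, 39.9, 42.4 and 43.2 RPM in the hypercapnia libraries HC1 to HC4. All libraries but NC3 lay between 31.7 and 43.2 RPM, and NC3 stood far above them. The log2 fold change was -0.34 (SE 0.49, unadjusted p 0.516) and turned to 0.27 without NC3, with an unadjusted p of 0.0205 but under the fold threshold. On whole reads it was -0.96 in edgeR (unadjusted p 0.139) and -1.02 in DESeq2. DESeq2 gave no p for Asl, which it leaves out where a single library dominates a fit. NC3 is also the library with the most Lyz2 (29108 RPM) and the lowest sum of satellite cell markers (537 RPM), while the macrophage markers Adgre1 and C1qb were lowest there. The part of these cells in its Asl value was not tested.

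Odc1, ornithine decarboxylase, is the rate-limiting enzyme of polyamine synthesis, and it was the single enzyme of the 5 whose groups did not overlap. It stood at 151, 148 and 144 RPM in the normocapnia libraries NC1 to NC3, against 184, 175, 322 and 221 RPM in the hypercapnia libraries HC1 to HC4. Every hypercapnia library was above every normocapnia library, as for 4.96% of genes averaging 10 RPM or more, and 9.62% of those had no overlap in either direction. Means were 147 ± 3.68 RPM (SD, n = 3) and 225 ± 67.5 RPM (SD, n = 4). The log2 fold change was 0.57 (SE 0.22), or 1.48-fold, with an unadjusted p of 0.0491 and an adjusted p of 0.915, so Odc1 passed the p threshold and missed that of fold change.
The unadjusted p of Odc1 lay at the threshold and moved across it with small changes. Without HC1 or HC2, the lowest of the hypercapnia values, Odc1 was called at 0.65 (unadjusted p 0.0487; 1.61% of all genes) and 0.67 (unadjusted p 0.0348; 1.57% of all genes). Without HC3, the highest, the difference was 0.38 (unadjusted p 0.0144). Without NC1, NC2, NC3 or HC4 the difference stayed between 0.55 and 0.58, and the unadjusted p was 0.0996, 0.108, 0.116 and 0.0949 in turn, no longer under 0.05. With a filter at 1 RPM the unadjusted p was 0.0971, and with the replicate number as a block it was 0.145. The difference was 0.42 (unadjusted p 0.147) with median-of-ratios scaling, 0.46 (unadjusted p 0.164) in edgeR and 0.41 (unadjusted p 0.216) in DESeq2, none of which called it. HC3, the library with the most Odc1, also had the highest sums of neutrophil (329 RPM) and endothelial (516 RPM) markers, and over the 7 libraries Odc1 correlated at 0.77 and 0.67 with these sums. Their part in Odc1 was not tested.

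Srm, spermidine synthase, showed no direction. It stood at 287, 104 and 308 RPM in the normocapnia libraries NC1 to NC3, against 128, 148, 406 and 340 RPM in the hypercapnia libraries HC1 to HC4. Each group held both low and high libraries, with NC2, HC1 and HC2 low and the other 4 high, and the log2 fold change was 0.11 (SE 0.62, unadjusted p 0.866). The sign was negative with median-of-ratios scaling, in edgeR, in DESeq2 and without NC2, HC3 or HC4. In hypercapnia this followed the pairs of libraries. Summed endothelial markers (60.8 and 47.3 RPM in HC1 and HC2, 516 and 393 RPM in HC3 and HC4) split in the same way. So did the satellite cell, neutrophil, fibro-adipogenic and myofiber sums, though not every marker in them. The fibro-adipogenic split was largest in Dcn (188 and 169 RPM, then 1050 and 1356 RPM). Col3a1 ran the other way (144 and 96.7 RPM, then 58.6 and 64.5 RPM). Col1a1, Acta1 and Mmp8 did not split by pair. The part of these cells in Srm was not tested. Over all 7 libraries Srm correlated at 0.77 with the endothelial sum, which was 219, 103 and 88.0 RPM in NC1, NC2 and NC3.

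Sat1, spermidine and spermine acetyltransferase, opens polyamine breakdown. It stood at 149, 245 and 91.2 RPM in the normocapnia libraries NC1 to NC3, against 289, 283, 180 and 183 RPM in the hypercapnia libraries HC1 to HC4. Only NC2 reached into the hypercapnia range. The log2 fold change was 0.61 (SE 0.39), or 1.52-fold, with unadjusted p 0.173 and an adjusted p of 0.915. Without NC2 it was 0.96 and called (unadjusted p 0.0391; 5.04% of all genes were called), and without NC3 it was 0.25 (unadjusted p 0.487).
Within hypercapnia Sat1 and Srm ran in opposite order by library, with HC1 and HC2 high in Sat1 and low in Srm. Over the 7 libraries the Pearson correlation of their log2 values was -0.71. The ratio of Sat1 to Odc1 was 0.983, 1.66 and 0.634 in the normocapnia libraries NC1 to NC3, against 1.57, 1.61, 0.559 and 0.831 in the hypercapnia libraries HC1 to HC4, so this ratio overlapped between the groups.

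**Figure D2:**
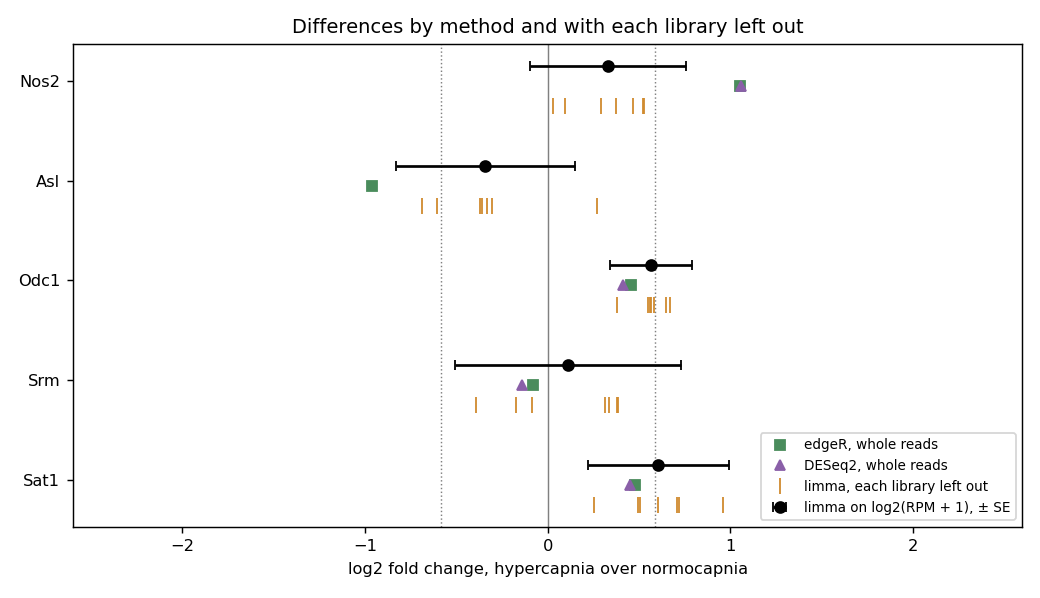
Log2 fold change, hypercapnia over normocapnia, of the 5 enzymes in limma (black points, bars are SE), edgeR (squares), DESeq2 (triangles; Asl has none, as DESeq2 gave it no p) and limma with each library left out (ticks). Dotted lines mark the 1.5-fold threshold, and Srm and Asl have values on both sides of 0 while Odc1 stays between 0.38 and 0.67.

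The enzymes differed in how evenly they were expressed within a group. Over the 8229 genes averaging 10 RPM or more, the median SD of log2(RPM + 1) was 0.66 in normocapnia and 0.23 in hypercapnia. Asl (1.06 and 0.09) was spread widely in normocapnia and narrowly in hypercapnia. Srm stood at 0.87 and 0.84, and 65.2% of the genes had a smaller SD in normocapnia and 94.5% in hypercapnia. Sat1 stood at 0.71 and 0.38.
Odc1 was the reverse of Asl. Its SD was 0.04 in normocapnia and 0.40 in hypercapnia, and only 0.109% of the genes had a smaller SD among the normocapnia libraries. The normocapnia libraries that differed 3.87 times in Asl and 2.97 times in Srm differed 1.05 times in Odc1. With 3 and 4 libraries these SDs are themselves uncertain, and they were not tested.

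**Figure D3:**
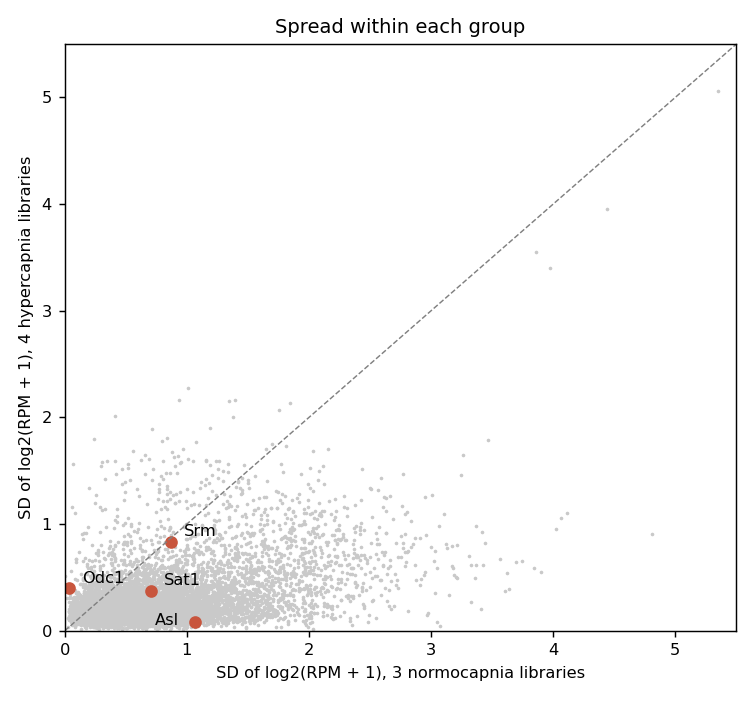
SD of log2(RPM + 1) among the 3 normocapnia libraries (x axis) against the 4 hypercapnia libraries (y axis). Grey points are the 8229 genes averaging 10 RPM or more, red points are the enzymes except Nos2, which was near the limit of detection, and the dashed line marks equal SD. Odc1 lies at the left edge, above the line, and Asl lies low and to the right.

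The enzymes did not move as a block. Over the 7 libraries, which differ in cell makeup and share the scaling to RPM, the Pearson correlation of log2 values was highest between Nos2 and Odc1 (0.82), where Nos2 rests on at most 36 reads, and lowest between Asl and Sat1 (-0.80), while Odc1 with Srm, successive enzymes of one branch, gave 0.51.
The genes most like each of 3 enzymes were ranked by Pearson correlation among those averaging 10 RPM or more. These are the extremes of 8228 comparisons (8229 for Nos2) over 7 libraries and carry no test. For Sat1 they were Ndufc2, a subunit of respiratory complex I, and Casp1, the inflammasome protease (both 0.996), and the kinase Prkci (0.992). Casp1 stood at 15.3, 42.2 and 6.54 RPM in the normocapnia libraries NC1 to NC3, against 50.1, 43.7, 22.5 and 24.4 RPM in the hypercapnia libraries HC1 to HC4.
For Odc1 the closest were Tti1 (0.94), Sirpb1b (0.93) and Zranb2 (0.92), lower correlations than for Nos2 and Sat1. Tti1 stood at 14.2 to 15.7 RPM in normocapnia and 18.8 to 24.0 RPM in hypercapnia. Its groups were apart as well, as for 4.96% of genes averaging 10 RPM or more. Those of Sirpb1b and Zranb2 overlapped, with NC1 (41.4 and 70.0 RPM) above HC1 (38.3 and 69.9 RPM). For Nos2 the closest were Fabp4 (0.97), a fatty acid carrier of adipocytes, endothelium and macrophages, Tm4sf1 (0.96), a membrane protein typical of endothelium, and Enoph1 (0.96), an enzyme of methionine salvage.

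The wider pathway was described by 52 other genes. In limma 1 of the 52 (1.92%) was called, against 2.57% of all genes, and 3 were at 0 in all libraries, the liver urea cycle enzymes Otc and Cps1 and the liver enzyme Mat1a. The median log2 fold change of the 41 genes averaging 1 RPM or more was 0.39, against 0.16 for all such genes. It was 0.27 under median-of-ratios scaling, 0.17 under quantile normalization, 0.25 in edgeR with a filter (15 of the 41 below 0) and 0.20 in DESeq2.
The gene called was Slc7a7, the y+L carrier that exchanges cationic amino acids such as arginine for neutral ones. It stood at 26.9, 33.5 and 28.5 RPM in the normocapnia libraries NC1 to NC3, against 120, 109, 81.9 and 85.9 RPM in the hypercapnia libraries HC1 to HC4 (log2 fold change 1.70, SE 0.17, unadjusted p 8.51e-05, adjusted p 0.351). Every hypercapnia library was above every normocapnia library, as for 4.96% of genes averaging 10 RPM or more. It was among the 29 genes that DESeq2 called after adjustment (adjusted p 0.0212), while edgeR gave it an adjusted p of 0.758. The macrophage marker Adgre1 was apart in the same direction, at 109, 149 and 70.5 RPM in normocapnia and 392, 429, 151 and 184 RPM in hypercapnia, and like Slc7a7 it was highest in HC1 and HC2. It was the only one of the 10 macrophage markers whose groups did not overlap. Of the others, Csf1r, Itgam and Lyz2 had a lower mean in hypercapnia and the rest a higher one. The part of these cells in Slc7a7 was not tested. Its partner chain Slc3a2 (0.15, SE 0.30) and the arginine carriers Slc7a1 (0.15, SE 0.57) and Slc7a2 (-0.52, SE 0.66) were not called with all libraries. Slc7a2 was called lower without NC3, its lowest library at 1.65 RPM (2.57% of all genes called in that fit).

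**Figure D4:**
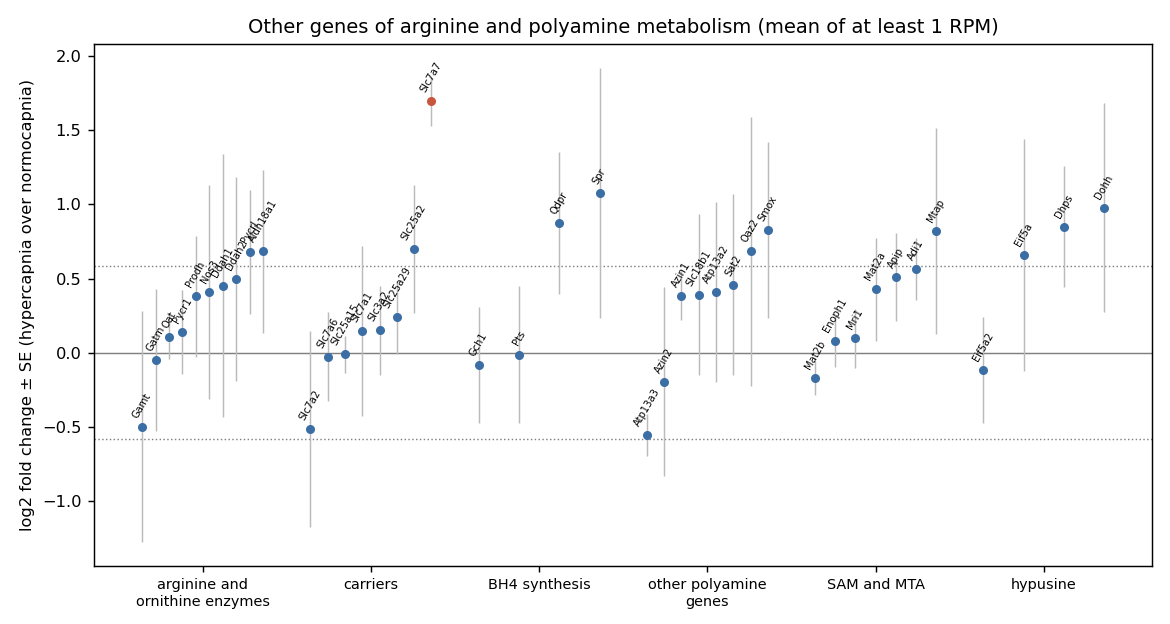
Log2 fold change with SE (hypercapnia over normocapnia, limma) of the 41 other pathway genes averaging 1 RPM or more, grouped by role. Dotted lines mark the 1.5-fold threshold, and the red point, Slc7a7, is the gene called.

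Of the 11 other polyamine genes, limma on log2(RPM + 1) with all libraries called none, and 1 had an unadjusted p under 0.05. This was Atp13a3, a transporter implicated in polyamine uptake, at 180, 136 and 156 RPM in the normocapnia libraries NC1 to NC3, against 101, 91.6, 126 and 109 RPM in the hypercapnia libraries HC1 to HC4 (log2 fold change -0.56, SE 0.14, unadjusted p 0.00951). Its groups did not overlap, hypercapnia being the lower, as for 4.67% of genes averaging 10 RPM or more, but the difference was under the fold threshold in limma on RPM. It was called in edgeR with a filter (-0.69, unadjusted p 0.0268), beside 6.03% of the genes tested. It was called in DESeq2 (-0.74, unadjusted p 0.0108), beside 6.25%. In limma it was called under median-of-ratios scaling (2.55% of all genes) and without NC2 (5.04%) or HC3 (2.39%). Its adjusted p was 0.827 in limma, 0.758 in edgeR and 0.376 in DESeq2. Antizyme inhibitor Azin1, which shields Odc1 from degradation, stood at 203, 288 and 179 RPM in the normocapnia libraries NC1 to NC3, against 274 to 306 RPM in the hypercapnia libraries HC1 to HC4 (0.39, SE 0.17, unadjusted p 0.0642). Spermine oxidase Smox (0.83, SE 0.59) and antizyme Oaz2 (0.68, SE 0.91) were not called, with NC3 the lowest library for both. The row Amd2, a close relative of Amd1 whose synonyms in RefSeq include Amd1, held 0 to 23 reads per library and was not read as Amd1.
Methylthioadenosine is the by-product of polyamine synthesis. Among 8 genes that supply S-adenosylmethionine or salvage methylthioadenosine, none was called in limma on log2(RPM + 1) with all libraries and no block. Adi1, an enzyme of that salvage, had no overlap between groups, as 4.96% of genes averaging 10 RPM or more with hypercapnia the higher, at 17.1 to 23.6 RPM in normocapnia and 24.0 to 37.9 RPM in hypercapnia (0.56, SE 0.21, unadjusted p 0.0388, adjusted p 0.915), and fell short of the fold threshold. It was called with a pseudocount of 0.1 RPM (3.52% of all genes) and with the replicate number as a block (2.5%). It was also called without NC1 (8.32%), HC3 (2.39%) or HC4 (1.99%). Mtap, which takes the first step of the salvage, stood at 309, 61.1 and 110 RPM in the normocapnia libraries NC1 to NC3, against 164, 125, 381 and 338 RPM in the hypercapnia libraries HC1 to HC4 (0.82, SE 0.70, unadjusted p 0.286).
None of the 4 hypusine genes was called by limma on log2(RPM + 1) with all libraries and no further scaling. They encode eIF5A and the enzymes that modify it, with spermidine as the donor. Dhps, deoxyhypusine synthase, stood at 47.6, 38.3 and 14.5 RPM in the normocapnia libraries NC1 to NC3, against 50.9 to 61.7 RPM in the hypercapnia libraries HC1 to HC4 (0.85, SE 0.41, unadjusted p 0.0865). Its groups did not overlap, hypercapnia being the higher, as for 4.96% of genes averaging 10 RPM or more. Dhps was called in edgeR with a filter (0.72, unadjusted p 0.041, adjusted p 0.758), beside 6.03% of the genes tested. It was called in DESeq2 (0.68, unadjusted p 0.032, adjusted p 0.487), beside 6.25% of the genes tested. In limma it was called under median-of-ratios scaling (2.55% of all genes), under quantile normalization (2.9%) and without NC1 (8.32%). It was not called in edgeR without a filter (unadjusted p 0.0618). Eif5a itself was at 649, 535 and 80.0 RPM in normocapnia and 390 to 647 RPM in hypercapnia (0.66, SE 0.78), NC3 being far below the rest.
None of the 15 other arginine and ornithine enzymes was called with all libraries. Aldh18a1 was called without NC1 (8.32% of all genes), and Gamt and Nags without NC2 (5.04%). Nags held 0 to 20 reads per library. Oat, ornithine aminotransferase, was close to level, at 102.6 to 143.5 RPM in normocapnia and 123.1 to 156.5 RPM in hypercapnia (0.11, SE 0.15, unadjusted p 0.496). None of the 5 genes of tetrahydrobiopterin synthesis, which makes the cofactor of nitric oxide synthases, was called (log2 fold changes from -0.08 to 1.08).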

How the data were processed

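The authors sorted Pax7-GFP+ cells from hind leg muscle, made Ion AmpliSeq Transcriptome Mouse libraries and sequenced them on an Ion S5 system. The deposited table holds RPM per gene, scaled by the authors to reads assigned to the panel, and the submitters' processing notes name the Transcriptome Analysis Console. No aligner is named in these notes and no build either (not given in the sources used here), and coordinates were therefore not printed. The 40 hours in the title of the deposited table are not explained by the labels. The study's methods give 40 hours for plated cells and 3 days after injury for the sequenced ones, and the labels place RNA isolation after sorting, with no time. What the title refers to is not settled by these sources.
Whole reads were recovered from the deposited RPM by finding the library total at which values become whole within 0.05 reads, which held for 100% of values. In simulated libraries this gave the right total in 3 of 3. Columns were assigned by the barcode in each sample's description.
Differences were tested as hypercapnia minus normocapnia on log2(RPM + 1) with limma 3.58.1 (R 4.3.3), keeping all 23930 genes, with Benjamini-Hochberg adjustment over all genes. Fold changes on this scale understate those of low genes. A gene was called where its unadjusted p was under 0.05 and its fold above 1.5. The script was tested on simulated data. edgeR 4.0.16 (quasi-likelihood, TMM) and DESeq2 1.42.0 on the whole reads were alternatives, as were other pseudocounts, a filter, other scalings, a replicate block and leaving out each library.
The enzymes, the gene lists and the tests were chosen with earlier results of these data known. Results for 2 further enzymes and 1 further pathway gene are not reported here, and counts leave them out. Named genes are the enzymes, the called other pathway gene and the 5 with the highest mean RPM (Eif5a, Azin1, Slc3a2, Mtap and Oat; a rule for naming only, since RPM does not rank genes by abundance), the first gene and the sum of each marker list, and for 3 enzymes the 3 most correlated genes. Other genes named were chosen after their values were seen. The first genes of the remaining marker lists, S100a8 (6.63 to 52.9 RPM), Cd3e (0 to 0.892 RPM), Pecam1 (26.2 to 317 RPM), Pdgfra (3.37 to 13.7 RPM), Acta1 (4.75 to 402 RPM) and Alas2 (0.201 to 15.4 RPM), are given here only. The summed levels of these lists ran from 82.1 to 329 RPM (neutrophil), 7.95 to 16.3 RPM (lymphocyte), 870 to 2278 RPM (fibro-adipogenic) and 239 to 4411 RPM (myofiber). Of 5 red blood cell genes only Alas2 has a row.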

Additional observations from a re-analysis of the deposited data

How the results depend on the processing

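The count of enzymes called, 0 in limma on log2(RPM + 1), stayed 0 under the other pseudocounts, scalings, filter and tools tried, and ran from 0 to 1 with each library left out (Sat1 without NC2, Odc1 without HC1 or HC2). Other pathway genes called numbered 1 of 52, beside 2.57% of all genes. They numbered 2 with a pseudocount of 0.1 RPM (3.52%), under quantile normalization (2.9%) and in edgeR unfiltered (4.38%). There were 3 under median-of-ratios scaling (2.55%), of 43 tested in edgeR filtered (6.03%) and of 49 in DESeq2 (6.25%). With a library left out they ran from 1 to 5. There were 5 without NC1 (8.32%), 4 without NC2 (5.04%) and 3 without HC3 (2.39%). Slc7a7 was called in each of these fits, and the genes added in DESeq2 were Atp13a3 and Dhps. All genes called numbered 615 (343 higher, 272 lower), against 1049 (407 and 642) in edgeR without a filter, 1304 (519 and 785) in DESeq2, 802 (294 and 508) in edgeR with a filter, 336 and 357 with quantile normalization, and 376 to 1990 with a library left out, the latter without NC1.
Direction held for Nos2, Odc1 and Sat1 in every alternative that gave a value. Srm turned to -0.034 under median-of-ratios scaling, -0.081 and -0.056 in edgeR (filtered and unfiltered), -0.14 in DESeq2, -0.086 with the replicate block, and ran from -0.39 to 0.39 with a library left out. Asl ran from -0.69 to 0.27 with a library left out, positive without NC3. The cause of these turns was not tested.
With the replicate number as a block, 0 enzymes, 2 other pathway genes (Adi1 and Slc7a7) and 598 genes in all were called. Deviations from the group means correlated at -0.35, 0.50 and -0.04 for the pairs numbered 1 to 3. NC2 with HC2 was the highest of all pairs, and NC2 with HC1, of unlike number, was next at 0.45. With so few libraries these values cannot decide whether the numbers pair the libraries.
With 3 libraries against 4, the spread among libraries limits every comparison. It is larger in normocapnia for Asl and Sat1, larger in hypercapnia for Odc1 and close to equal for Srm, and Nos2 rests on 0 to 36 reads as well.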
